A study of Mus with 2 samples.

Results

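The 8 genes of the distal nephron described here, Umod, Egf, Ppp1r1a, Slc12a1, Slc12a3, Kcnj1, Atp1b1 and Fxyd2, were followed across cell clusters of kidneys from young and from senescent C57BL/6 mice. They were taken by name from the authors' deposited table, which holds 20111 entries, each a gene within a cluster, for 8191 genes. Of the 8 genes, 7 were listed in at least 1 of the 7 clusters, in 27 entries in all, and Kcnj1 was listed in none. Droplet single-cell libraries were made from whole-kidney suspensions, 1 from the young mice (10895 cells, per the series text) and 1 from the senescent mice (4408 cells). The labels describe both groups as kidney and name no treatment. The sources used here do not state ages, sexes or the number of mice per library. Each value below is the authors' mean expression per cell of a cluster in 1 library, on a scale they did not state, and it has no SD. The assignment of the columns to young and senescent rests on the labels, since the name of the contrast in the table uses neither word.

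The distal nephron reclaims salt after the proximal tubule. In the thick ascending limb of the loop of Henle, the cotransporter NKCC2, encoded by Slc12a1, carries sodium, potassium and chloride into the cell, and the channel ROMK, encoded by Kcnj1, returns potassium to the lumen. In the distal convoluted tubule the thiazide-sensitive cotransporter NCC, encoded by Slc12a3, takes up sodium with chloride. The sodium pump of the basolateral membrane drives both, and Atp1b1 and Fxyd2 encode its beta subunit and its regulatory gamma subunit. Umod encodes uromodulin, the most abundant protein of normal urine, and Egf encodes the precursor of epidermal growth factor, which acts on magnesium uptake. Ppp1r1a encodes an inhibitor of protein phosphatase 1 and is a marker of the thick ascending limb.

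Each group had 1 library, so no difference between groups could be tested against a spread between mice. An entry appears in the table only if the authors' p-value, which measures spread between cells, is under 0.05 and the log2 fold change is 0.36 or more in size. Every listed gene therefore had to differ, and a gene that is not listed in a cluster can be called neither unchanged nor absent. Listed is used in this sense throughout. The cluster labels PT, LOH, Marco, T, B, endo and Neutro are the authors'. No member was listed in endo or in Neutro.

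In the authors' deposited table, the senescent library had the higher mean in 4 of the 27 entries and the lower mean in 23. The higher entries were Umod, Slc12a3 and Atp1b1 in LOH, where 47.8% of all listed genes were higher, and Atp1b1 in PT, where 78.4% were. All 17 entries in Marco, T and B were lower, a direction shared by 41.7%, 55.2% and 71.8% of the genes listed in these clusters. A gene is termed called where the authors' adjusted p did not exceed 0.05 and their log2 fold change was 1 or more in size. Of the 4 members listed in LOH, Umod was called as higher, as were 2.16% of all genes listed there. In PT, 5 of the 6 listed members were called as lower, as were 5.6% of all listed genes, and Atp1b1 was called as higher, as were 57.2%. Members called as lower numbered 3 of 6 in Marco (23.6% of all listed genes), 2 of 7 in T (20.7%) and 2 of 4 in B (15.5%). The share of members called as lower was farthest above that of all listed genes in PT, with few members behind each count.

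**Figure D1:**
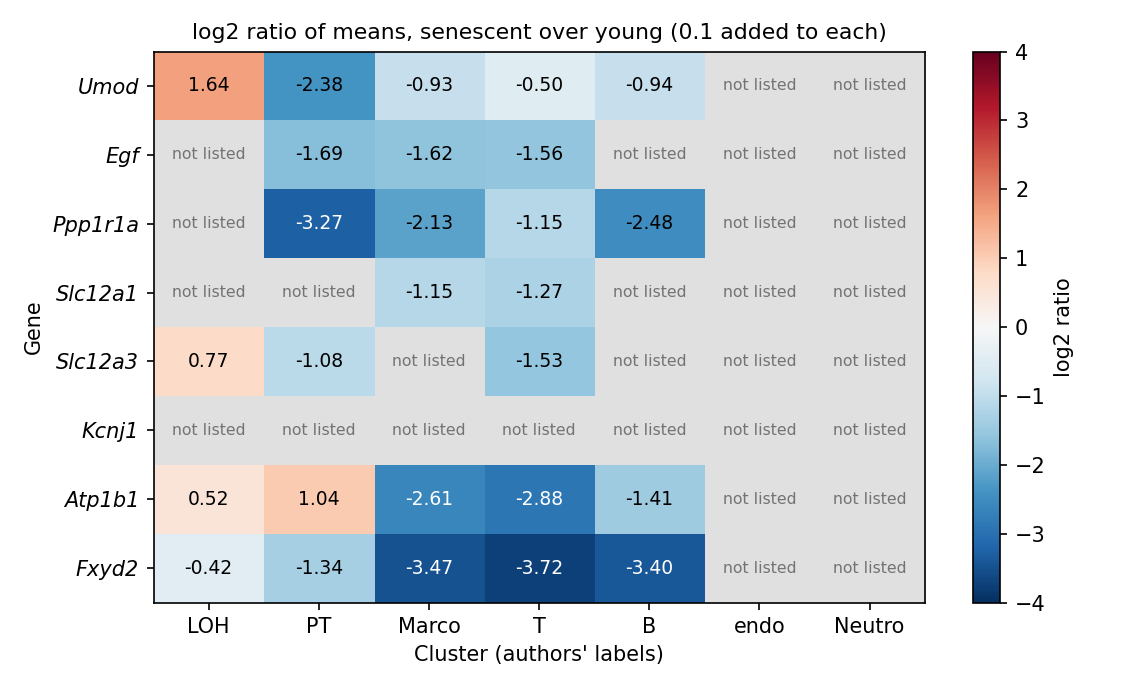
Log2 ratio of the senescent over the young mean, with 0.1 added to each, for the 8 genes (rows) in the 7 clusters (columns); grey cells are genes not listed in that cluster. Red cells are the 4 higher entries, which lie in LOH and PT, and the lowest value is that of Fxyd2 in T at -3.72.

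Uromodulin transcripts differed in opposite directions between LOH and the other clusters. In LOH the Umod mean was 47.6 for the young library and 148 for the senescent one, a ratio of 3.11. In PT it had 3.20 and 0.535, so the young mean was 5.97-fold the senescent one. It had 1.73 and 0.862 in Marco. In T the means were 0.674 and 0.448. In B they were 0.734 and 0.336. Umod was thus highest in LOH in both libraries, and the gap between LOH and every other listing cluster was wider in the senescent one. As a share of the LOH mean of the same library, Umod in PT stood at 6.71% for the young library and at 0.361% for the senescent one. The share went from 3.64% to 0.582% in Marco, from 1.41% to 0.302% in T and from 1.54% to 0.227% in B. Of the 5 Umod entries, those in LOH and PT passed the authors' adjusted p.

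Egf, the other secreted product, was listed in 3 clusters and was lower in the senescent library in each. Its means were 0.425 and 0.0629 in PT. In Marco they were 0.453 and 0.0797. In T they were 0.259 and 0.0213. The young means exceeded the senescent ones 6.76-fold, 5.68-fold and 12.2-fold, and the entry in PT alone passed the adjusted p. Egf was not listed in LOH, so the ratio of its level between libraries in the cluster where Umod was highest is not known.

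Ppp1r1a, the phosphatase inhibitor gene, had the largest ratio among members in PT, with means of 1.13 and 0.0269, a 41.9-fold difference. This order depends on the small senescent mean. With 1 added to each mean, the log2 ratio in PT was -1.05 for Ppp1r1a, -1.45 for Umod and -1.33 for Fxyd2. In Marco Ppp1r1a had 0.786 and 0.102, a 7.71-fold difference. In T it had 0.224 and 0.0461, a 4.87-fold difference that did not pass the adjusted p. In B it had 0.458 in the young library and was listed at 0 in the senescent one. All 4 entries of Ppp1r1a were lower in the senescent library, and LOH did not list it.

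The apical cotransporters differed in where they were listed. Slc12a1 was listed only in Marco, at 0.513 and 0.177, and in T, at 0.287 and 0.0604. Both entries were lower in the senescent library, by 2.91-fold and 4.75-fold, and neither passed the adjusted p. Slc12a3 was higher in the senescent library in LOH, at 9.05 and 15.5, a ratio of 1.71 that did not pass the adjusted p. It was lower in PT, at 0.341 and 0.108, and in T, at 0.283 and 0.0324. The entry in PT passed. Slc12a3 was highest in LOH in both libraries. S100g and Pvalb, further markers of the distal convoluted tubule, were listed in LOH as well, at 20.9 and 30.9 and at 2.11 and 0.971. The cluster labelled LOH therefore held transcripts of the distal convoluted tubule beside those of the thick ascending limb, and means in it cannot tell a change within a segment from a change in the share of cells of each segment.

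**Figure D2:**
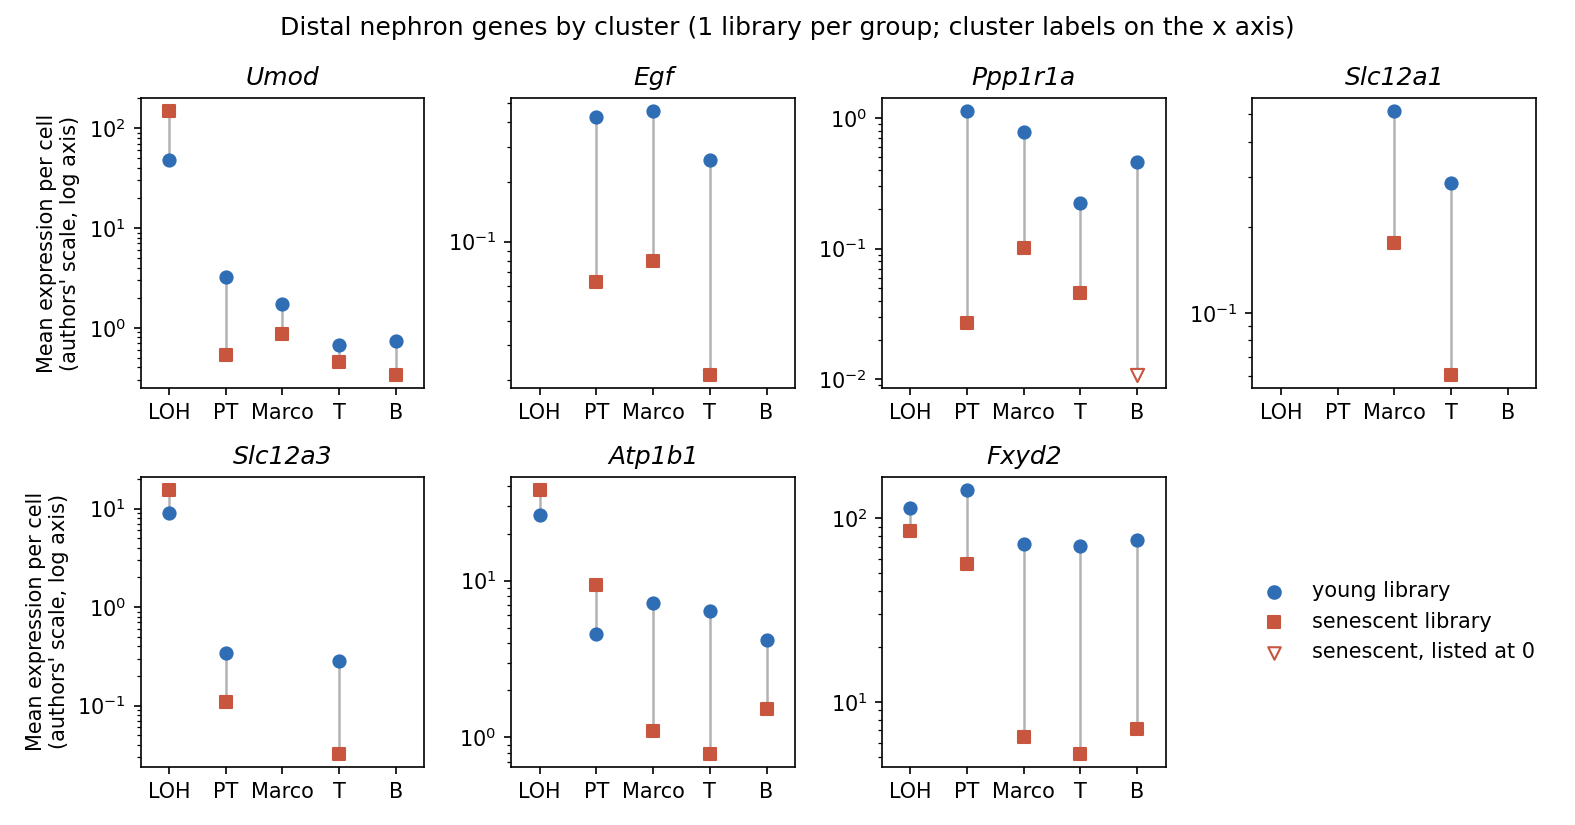
Mean expression per cell (log axis, authors' scale) of the 7 listed genes in the young (circles) and senescent (squares) library, by cluster; the open triangle marks Ppp1r1a in B, listed at 0. Umod, Slc12a3 and Atp1b1 are highest in LOH, and in Marco, T and B every senescent mean lies below the young one.

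The subunits of the sodium pump did not move alike in the tubule clusters. Atp1b1 had means of 26.4 and 37.9 in LOH, a ratio of 1.44. In PT it had 4.55 and 9.45, a ratio of 2.08. Both tubule entries were higher in the senescent library and passed the adjusted p. In Marco it had 7.21 and 1.10, in T 6.41 and 0.787, and in B 4.19 and 1.51. These 3 entries were lower, by 6.57-fold, 8.14-fold and 2.77-fold, and the one in B did not pass the adjusted p.

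Fxyd2 was lower in the senescent library in all 5 clusters that listed it. Its means were 114 and 85.2 in LOH, a 1.34-fold difference that did not pass the adjusted p. In PT they were 142 and 56.2, a 2.53-fold difference. In Marco they were 72.3 and 6.43, in T 70.2 and 5.23, and in B 76.0 and 7.12. The differences in these 3 immune-labelled clusters were 11.2-fold, 13.4-fold and 10.7-fold. The level of Fxyd2 in Marco, T and B was 63.4%, 61.6% and 66.7% of the LOH level in the young library. In the senescent library it was 7.55%, 6.14% and 8.35%. Fxyd2 was highest in PT in the young library and in LOH in the senescent one. Without replicates, none of these orders of clusters could be set against a spread.

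**Figure D3:**
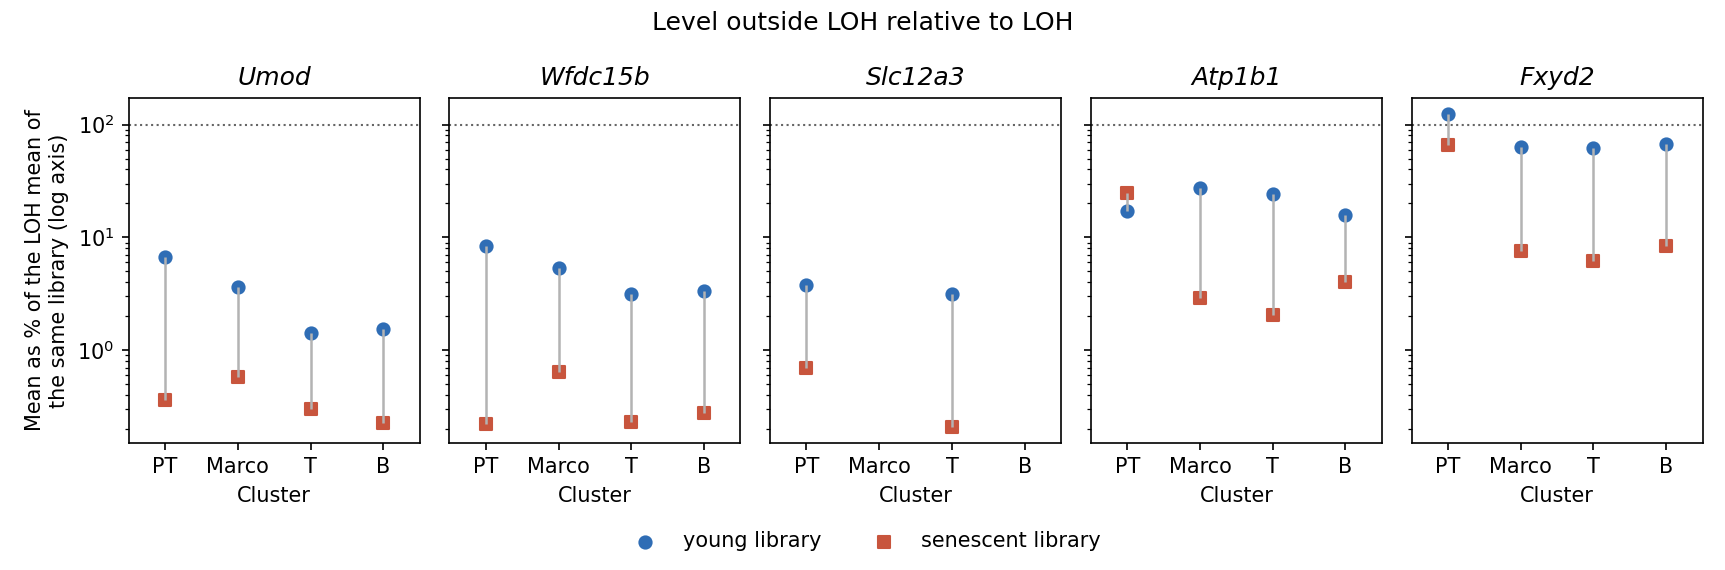
Mean of 5 genes in PT, Marco, T and B as a percentage of the LOH mean of the same library (log axis; the dotted line marks the LOH mean itself), young (circles) and senescent (squares). Every senescent share lies below the young one except that of Atp1b1 in PT, which was 17.3% for the young library and 24.9% for the senescent one.

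Quotients of members within a cluster and library also differed between the libraries. A quotient compares the same pair of genes across clusters and is no ratio of molecule numbers, since lengths and capture differ between genes. Fxyd2 over Umod was 41.7 in Marco, 104 in T, 104 in B and 44.5 in PT in the young library. In the senescent library it was 7.46, 11.7, 21.2 and 105. In LOH it went from 2.39 to 0.575. The senescent quotient was thus the lower one in LOH, Marco, T and B, and the higher one in PT. Fxyd2 over Atp1b1 was 10.0 in Marco, 11.0 in T and 18.1 in B in the young library, and 5.86, 6.65 and 4.70 in the senescent one. In PT it went from 31.3 to 5.94 and in LOH from 4.32 to 2.25. Umod over Egf was 7.52 and 8.51 in PT, 3.82 and 10.8 in Marco and 2.60 and 21.1 in T. Within a library these quotients were not constant across clusters.

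Proximal tubule markers outside PT went one way in LOH, Marco, T and B, where each listed one had a lower senescent mean. All listed members were lower too in Marco, T and B, but not most of those in LOH. In endo, 8 of the 10 listed markers were lower and 2 higher, and in Neutro 2 of 3 were lower and 1 higher. Of the list of 22 such markers, 18 were listed in LOH, 21 in Marco, 22 in T and 21 in B. All of these were lower in the senescent library. Of all listed genes, 47.8% were higher in LOH, and 41.7%, 55.2% and 71.8% were lower in Marco, T and B. Summed marker means were 295 and 24.7 in LOH, 874 and 33.9 in Marco, 705 and 30.7 in T, and 714 and 37.8 in B. Kap made up most of each young sum. Without it the sums were 92.6 and 23.1 in LOH, 232 and 31.6 in Marco, 200.1 and 27.9 in T, and 215 and 36.6 in B. None of the listed markers was at 0 in either library. Kap, an androgen-induced gene of the proximal tubule, had means of 202 and 1.54 in LOH and of 642 and 2.24 in Marco. Fxyd2, which is also expressed in the proximal tubule, was lower in LOH, Marco, T and B. Umod, Slc12a3 and Atp1b1 were instead higher in LOH. The part of proximal tubule transcripts in these differences was not tested.

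In Marco, T and B, markers of the cell type in the cluster label went the other way from the members. Of all listed genes, 41.7% were lower in Marco, 55.2% in T and 71.8% in B. In Marco all 13 macrophage markers were higher in the senescent library, with summed means of 78.6 and 452. All 11 T cell markers were higher in T, with sums of 33.8 and 164. In B, 8 of 9 B cell markers were listed and all 8 were higher, with sums of 75.1 and 209. Called as higher were all 13 in Marco (22.9% of all listed genes), 8 in T (3.85%) and 4 in B (2.79%). Of 13 parietal or injured epithelium markers, 5 were listed in LOH and 3 in PT, and all of these were higher. Of all listed genes, 47.8% were higher in LOH and 78.4% in PT. Elsewhere this list was mixed, with 2 of 3 listed higher in Marco, 1 of 2 in T, 2 of 3 in B and 1 of 4 in endo. Spp1, which encodes osteopontin, had 13.1 and 101 in LOH and 2.62 and 62.4 in PT. It was higher in the immune-labelled clusters too, at 0.909 and 6.47 in Marco, 1.29 and 6.82 in T and 1.00 and 6.52 in B. Krt8 was lower in these 3 clusters. The part of these differences in those of the members was not tested.

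Within PT, 10 of 19 listed proximal tubule markers were higher and 9 lower, where 78.4% of all listed genes were higher. The summed means of these markers were 972 and 306, of which Kap made up 719 and 21.4. Without Kap the summed means in PT were 253 and 285, so the direction of the sum rested on Kap. The thick ascending limb list went one way there. All 5 of its 25 genes that were listed in PT were called as lower, as were 5.6% of all genes listed there. They were Umod, Egf, Ppp1r1a, Wfdc15b and Defb1, of which Umod, Egf and Ppp1r1a are members already counted above. Wfdc15b had means of 1.79 and 0.0641, a 27.9-fold difference. Defb1, which encodes a beta-defensin, had 1.38 and 0.0562, a 24.6-fold difference. The median log2 ratio of these 5 genes was -3.24, against 0.85 for all genes listed in PT, and the summed means of the 5 were 7.92 and 0.745. The 2 listed intercalated cell genes, both of the proton pump, differed in direction in PT, with Atp6v1g3 at 0.510 and 0.00342 and Atp6v0a4 at 0.445 and 1.55. The share of PT cells or droplets holding transcripts of other segments was not analysed here, and a lower level per cell cannot be told apart from fewer such cells.

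Further genes of the thick ascending limb list in LOH were chosen for naming after their values were seen, as none passed the adjusted p. Casr, the calcium-sensing receptor gene, had 0.0840 and 0.310. Wfdc15b had 21.4 and 28.7, Tmem72 had 1.61 and 2.67, and Tmem207 had 1.28 and 0.342. With Umod, 5 of the 6 listed genes had the higher mean in the senescent library and 1 the lower. Of all genes listed in LOH, 47.8% were higher. The median log2 ratio of the 6 was 0.63 against -0.35 for all genes listed in LOH. The ratio of 3.11 for Umod lay above that of Wfdc15b (1.34) and Tmem72 (1.66) and below that of Casr (3.69).

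Across 9 lists of distal nephron genes, 131 genes besides the members were considered. In LOH, 22 of the 25 listed were higher and 3 lower, and 0 passed the adjusted p. In PT, 41 of 45 were higher and 4 lower, and 33 and 4 of them were called. In Marco 12 were higher and 20 lower, with 6 and 13 called. In T 12 were higher and 29 lower, with 2 and 10 called, and in B 5 were higher and 14 lower, with 0 and 4 called. Over all listed genes, 57.2% were called as higher and 5.6% as lower in PT, and 22.9% and 23.6% in Marco. The shares were 3.85% and 20.7% in T, 2.79% and 15.5% in B, and 2.16% and 6.87% in LOH. Of all listed genes, called or not, 47.8% were higher in LOH, 41.7% were lower in Marco and 55.2% were lower in T. Most listed genes of any kind were higher in PT (78.4%) and lower in B (71.8%), so these directions are near those of all listed genes there.

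Regulators of salt transport were higher in all 14 listed genes in PT, 10 of which were called, where 78.4% of all listed genes were higher and 57.2% were called as higher. Sgk1, the aldosterone-induced kinase gene, had 0.581 and 3.83, Nedd4l, the ubiquitin ligase gene acting on sodium channels, had 0.137 and 0.767, and Wnk1, a kinase gene upstream of the cotransporters, had 0.177 and 0.739. Nr3c1, the glucocorticoid receptor gene, had 0.203 and 0.799. Their list median of 0.97 was close to the 0.85 of all genes listed in PT. In LOH, where 47.8% of all listed genes were higher, all 6 listed regulators were. Among them were Wnk1 at 7.09 and 10.6 and Stk39, the kinase gene that follows it in the cascade, at 0.547 and 1.00. These LOH entries did not pass the adjusted p, and both were named there after their values were seen.

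**Figure D4:**
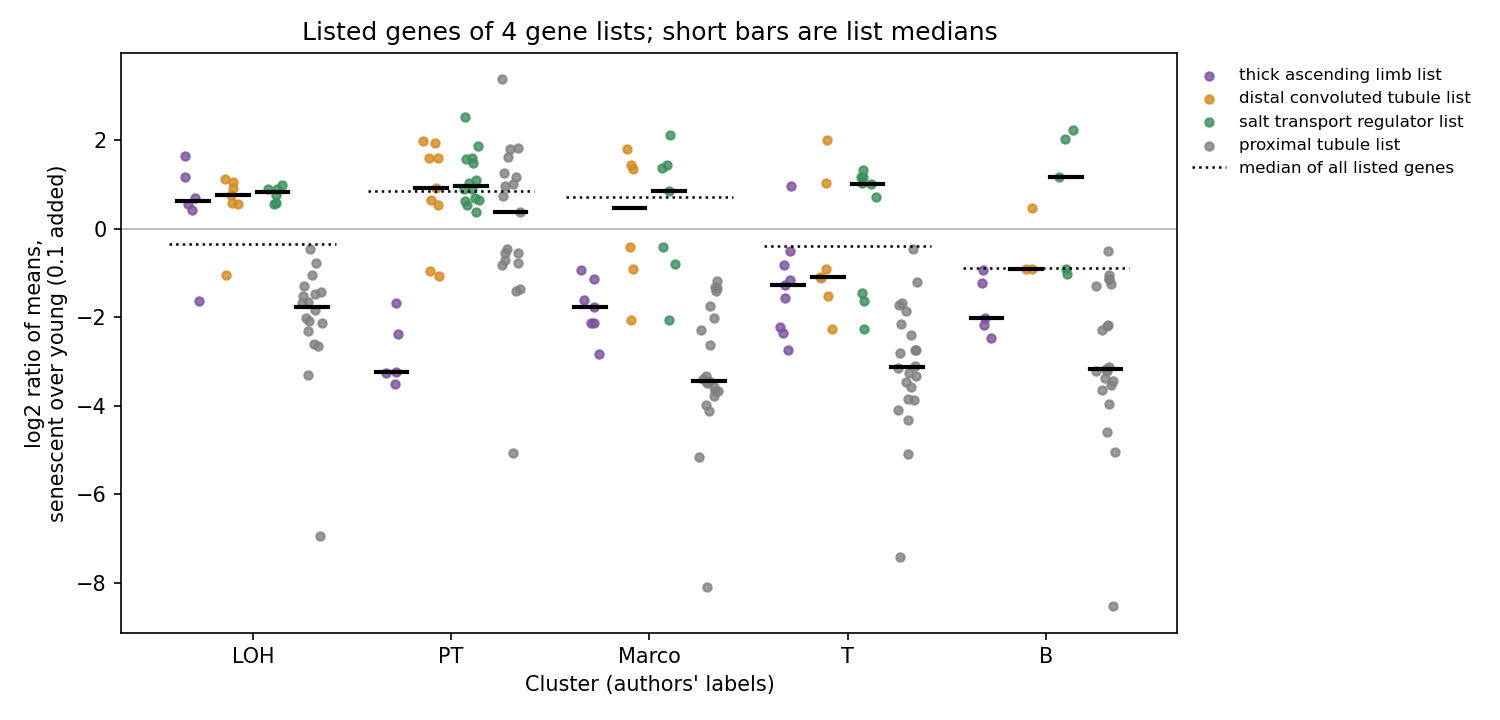
Log2 ratio of senescent over young means (0.1 added to each) for each listed gene of 4 lists in 5 clusters; short bars are list medians and dotted lines the medians of all listed genes. In PT the thick ascending limb list lies lowest, at a median of -3.24, and in LOH the proximal tubule list does, at -1.77.

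On the list of sodium pump subunits, Atp1b3 and Fxyd5 differed in direction from Atp1b1 and Fxyd2 in Marco. Atp1b3, a beta subunit gene of wide expression, was higher in Marco, at 0.443 and 1.37, and in PT, at 0.154 and 0.342. Fxyd5, a family member expressed in leukocytes, was higher in Marco, at 1.73 and 18.5, and in T, at 1.28 and 6.96. In Marco and T the listed pump genes thus included called genes of both directions. Among cation chloride cotransporters, Slc12a2, which encodes the widely expressed NKCC1, had 0.428 and 0.0529 in Marco, and Slc12a7 had 0.200 and 0.452 in PT.

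Of the genes around EGF signalling and uromodulin processing, all 8 listed in PT were higher and 6 were called, again beside 78.4% higher and 57.2% called of all listed genes. Their median log2 ratio was 1.19, against 0.85 for all listed genes. Egfr, the receptor gene, had 0.140 and 0.480, Erbb3 had 0.163 and 0.682, and the ligand genes Hbegf and Nrg1 had 0.0675 and 0.470, and 0.0845 and 0.813. Egf itself was lower in the same cluster. Hpn encodes hepsin, the protease that releases uromodulin from the membrane. It had 1.53 and 0.153 in Marco, 1.66 and 0.283 in T and 1.79 and 0.143 in B, and was higher in PT, at 1.38 and 1.85. Of the list of nephron transcription factors, all 11 listed in PT were higher and 10 were called, beside the same shares of all listed genes, including Ppargc1a at 0.137 and 0.945 and Pou3f3 at 0.113 and 0.625. In Marco, where 41.7% of all listed genes were lower, all 5 listed factors were, including Pax8 at 0.368 and 0.0638.

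For the 3 members listed in 5 clusters, genes with the most similar pattern were ranked over 10 values, the means of both libraries in LOH, PT, Marco, T and B, among 656 genes listed in all 5 clusters. The clusters of a library share its preparation, so Pearson's r on the log2 scale is a description. For Umod the nearest were Wfdc15b (0.96), the metallothionein gene Mt1 (0.89) and Cgnl1 (0.81), which encodes a tight junction protein. Mt1 departed from Umod in Marco, where it had 0.689 and 4.95. Cgnl1 departed from Umod in PT, where it was higher in the senescent library, at 0.242 and 0.749. For Atp1b1 the nearest were Nme7 (0.97), Cgnl1 (0.96) and Col4a4 (0.95), a basement membrane collagen gene. For Fxyd2 they were Ndufab1 (0.99), Ndufb6 (0.99) and Ndufb4 (0.99), all of respiratory complex I. Ndufb4, for example, had 17.4 and 7.10 in PT and 10.2 and 1.99 in Marco.

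In the deposited annotation, 6 of the 7 listed members, all but Ppp1r1a, carry the term plasma membrane, and Umod, Slc12a1, Slc12a3 and Atp1b1 carry apical plasma membrane. In genome build mm10, and by the coordinates of the RefSeq annotation of that build, Umod lies on chromosome 7 from 119462708 to 119479262, Egf on chromosome 3 from 129677574 to 129755322 and Ppp1r1a on chromosome 15 from 103530279 to 103538027. Slc12a1 lies on chromosome 2 from 125152510 to 125230002 and Slc12a3 on chromosome 8 from 94329109 to 94366222. Atp1b1 lies on chromosome 1 from 164437099 to 164458355. Chromosome 9 carries both Kcnj1, from 32372418 to 32399197, and Fxyd2, from 45399709 to 45410278. All 8 are annotated as protein coding, and each value is for the whole gene.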

How the data were processed

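The submitters' processing notes name Cell Ranger 2.1.1 and build mm10. The sources used here do not state cell filters, clustering, the treatment of doublets and free RNA, or the test between groups. For each cluster, the authors deposited a mean signal for each library, a log2 fold change, a p-value and an adjusted p-value. The deposited log2 fold changes of all member entries equal the log2 of senescent over young after adding 0.0001 to each mean, within 0.01. Depth is unknown, and intervals for counting error could not be had.

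Computed here with Python 3.11.15, numpy 2.4.6 and pandas 2.3.3 were ratios of means, log2 ratios with a pseudocount of 0.1, which understate the change of low genes, counts, list medians and Pearson's r. The code was tested on simulated data. The members and lists were chosen with earlier results of these data known. Members were named in every cluster. From each list and cluster, up to 4 further genes qualified by the largest log2 ratio, past an adjusted p of 0.05 and with a mean of at least 0.1, and the text names some of them. Some of these genes are not reported here. S100g and Pvalb in LOH and Hpn in PT fall outside this rule and were named after their values were seen. Alternatives were other pseudocounts, thresholds, minimum means and median centring.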

Additional observations from a re-analysis of the deposited data

Results flagged for a closer look

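Members whose senescent and young means differed in opposite directions between clusters are given here. These differences between clusters were not tested, since each group had 1 library. For Umod the log2 ratio was 1.64 in LOH and -2.38 in PT, a difference of 4.01. For Atp1b1 it was 1.04 in PT and -2.88 in T, a difference of 3.91. For Slc12a3 it was 0.77 in LOH and -1.53 in T, a difference of 2.30, and neither of these Slc12a3 entries passed the authors' adjusted p.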

How the results depend on the processing

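The 4 higher and 23 lower member entries had the same direction with a pseudocount of 1 or 0.01 and after median centring. Of the 12 entries called as lower, the count was 12 under the stricter adjusted p of 0.01 and 21 with no adjusted p, a number that includes entries resting on the fold alone. The count of 2 called as higher was 0 at a log2 fold change of at least 2. The median of all listed genes was at -0.35 in LOH, 0.85 in PT, 0.72 in Marco, -0.40 in T and -0.89 in B on the log2 scale. Relative to it, Atp1b1 in PT stood at 0.19, Fxyd2 in LOH at -0.07, Umod in T at -0.10 and Umod in B at -0.04. These medians cover listed genes only. The median of the listed sodium pump subunits in Marco was -0.18 and turned to 0.09 with a pseudocount of 0.01. The cause was not tested. No paired analysis was possible because each group had 1 library. Unknown depth limits the means near 0.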
